A study of Mus musculus with 3 samples.

Results

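The circadian clock genes described here are 10 genes chosen by symbol, Dbp, Tef, Hlf, Nr1d1, Nr1d2, Per1, Per2, Per3, Arntl and Clock, out of 41605 gene rows measured in single endothelial cells of mouse gastrocnemius muscle. They were read as an arm of 8 output and repressor genes and an arm of 2 activators, Arntl and Clock. The cells came from C57BL/6N mice and were sorted as CD31+, CD45- and SYTOX blue-, that is, as viable endothelial cells without the common leukocyte antigen. There were 3 libraries, 1 for each group, so no group had a replicate. The sedentary library came from singly housed mice that had no wheel. The running library came from singly housed mice that had used a wheel voluntarily for 14 days. The remaining library carried the label "no treatment", and is called untreated here. How its mice were housed is not given in the sources used here. All mice were wild type. The age, sex and number of mice per library and the hour at which muscle was taken are not stated in those sources, so hour, batch and group cannot be told apart in any comparison between libraries.

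The circadian clock is a transcription loop that runs in nearly every cell type, including endothelium. The proteins of Arntl (also called Bmal1) and Clock bind E-box DNA together and switch on the Per genes, the Nr1d genes (also called Rev-erb) and Dbp. PER proteins, with CRY proteins, repress that pair, and NR1D proteins repress Arntl. DBP, TEF and HLF are related bZIP factors that bind D-box DNA and carry the rhythm to other genes. In many mouse tissues Dbp, Nr1d1 and the Per genes peak at other hours than Arntl, and levels of these genes therefore depend on the hour of sampling.

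RefSeq promoters of the build GRCm38.p6 were found for 9 of the 10 genes, at 14 start sites, and the 250 bases before each start were searched on both strands. The E-box was searched as CACGTG, the D-box as TTATGTAA or TTACGTAA, and the site shared by ROR and NR1D proteins as TAGGTCA or TGGGTCA. No searched motif overlapped another in these windows. Dbp is shown because its level set artery-like cells apart in the running library, Tef and Per1 because their windows held an E-box, and Per3 because its window held D-boxes. Capitals mark the motif, and each sequence is written 5′ to 3′ on the strand of the gene. The windows were chr7:45704997-45705246 on the plus strand for Dbp, chr15:81802423-81802672 on the plus strand for Tef, chr11:69098699-69098948 on the plus strand for Per1 and chr4:151044666-151044915 on the minus strand for Per3.
Dbp: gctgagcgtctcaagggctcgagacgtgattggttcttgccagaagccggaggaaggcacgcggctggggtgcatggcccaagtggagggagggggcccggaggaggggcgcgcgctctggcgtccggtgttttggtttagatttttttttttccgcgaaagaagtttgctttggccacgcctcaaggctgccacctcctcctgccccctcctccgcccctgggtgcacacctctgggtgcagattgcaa
Tef: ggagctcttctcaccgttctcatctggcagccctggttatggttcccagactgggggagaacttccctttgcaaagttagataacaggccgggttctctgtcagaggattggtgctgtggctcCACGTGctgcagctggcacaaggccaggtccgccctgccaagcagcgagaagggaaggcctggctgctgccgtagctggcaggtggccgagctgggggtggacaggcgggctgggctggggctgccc
Per1: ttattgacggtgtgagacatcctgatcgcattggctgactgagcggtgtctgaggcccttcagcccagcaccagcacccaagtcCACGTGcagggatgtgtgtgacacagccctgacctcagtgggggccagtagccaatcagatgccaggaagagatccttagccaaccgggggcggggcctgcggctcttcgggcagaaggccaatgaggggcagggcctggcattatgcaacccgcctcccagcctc
Per3: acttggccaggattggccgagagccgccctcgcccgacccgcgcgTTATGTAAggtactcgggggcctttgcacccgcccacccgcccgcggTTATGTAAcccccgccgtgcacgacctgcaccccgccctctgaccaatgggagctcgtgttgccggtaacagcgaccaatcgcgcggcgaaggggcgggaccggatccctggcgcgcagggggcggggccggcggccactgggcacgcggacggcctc
The E-box of Tef began 127 bases before the start shown, and a further start site of Tef held one at 138 bases. The E-box of Per1 began 166 bases before the start. Per3 held 2 copies of TTATGTAA, which began 205 and 158 bases before the start. An E-box was present in 6.02% of 32851 promoters of the same length, a D-box in 0.931% and a ROR site in 5.38%. No window of the 9 genes held the searched ROR letters, and the window of Dbp held none of the searched letters.

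The libraries held 11715 barcodes and 19611619 UMIs, which count single RNA molecules, and 11552 cells were kept. An endothelial marker was detected in 99.8% to 100% of cells of each library, and Ptprc, which encodes CD45, had 0 to 3 UMIs per library. The libraries shared 20 to 32 cell barcodes in each pair. Capillary-like cells numbered 2360 untreated, 2943 sedentary and 2290 running, with medians of 1430, 954 and 1337 UMIs per cell. Artery-like cells numbered 1276, 707 and 498, and vein-like cells 536, 210 and 208. The untreated library stood apart, since 1320 of its capillary-like cells lay in a cluster that held 80 sedentary and 61 running cells. Levels are given as CPM, the number of UMIs of a gene per 1000000 UMIs of the same class and library, and the 3′ tags do not scale with gene length. Ratios are on the log2 scale, and intervals are exact 95% intervals that cover counting error only. A gene was called lower in the running library where it was below both other libraries by a ratio of at least 0.32 and had at least 20 UMIs over the 3 libraries.

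In capillary-like cells, summed as a class, most of the output and repressor genes were lower in the running library. No difference was detectable for the activators in these sums. Of the 10 clock genes, 6 were called lower (Dbp, Hlf, Nr1d1, Nr1d2, Per2 and Per3) and 0 higher, where 6.36% of 11867 measured genes were called lower and 8.87% higher. The 8 output and repressor genes summed to 566 CPM in untreated, 474 in sedentary and 338 in running cells. Their summed ratio was -0.49 (-0.60 to -0.38) as running to sedentary and -0.75 (-0.85 to -0.64) as running to untreated, and all 8 lay below 0 in both, although the intervals of Hlf, Per1 and Per2 against the sedentary library reached above 0. Arntl and Clock summed to 87.5, 98.4 and 92.3 CPM, with ratios of -0.09 (-0.32 to 0.13) and 0.08 (-0.15 to 0.30). Without Dbp the output sum had -0.39 (-0.52 to -0.26) as running to sedentary, and this interval overlapped that of Arntl and Clock. As running to untreated it had -0.78 (-0.91 to -0.66) without Dbp, and there the intervals of the arms lay apart. The median of all measured genes was -0.003 against the sedentary and 0.12 against the untreated library. Both ratios share the running library, so they are not independent. With a minimum of 500 genes per cell 2 genes were called lower (Dbp and Hlf, against 5.50% of all genes), in cells thinned to 1000 UMIs 3 of 8 (Dbp, Tef and Per3, against 8.02%), and without the highest 5% of doublet scores 3 (Dbp, Hlf and Nr1d1, against 6.36%). Over all endothelial-like cells 2 were called lower (Hlf and Per2, against 5.83%), and Dbp was not.

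**Figure D1:**
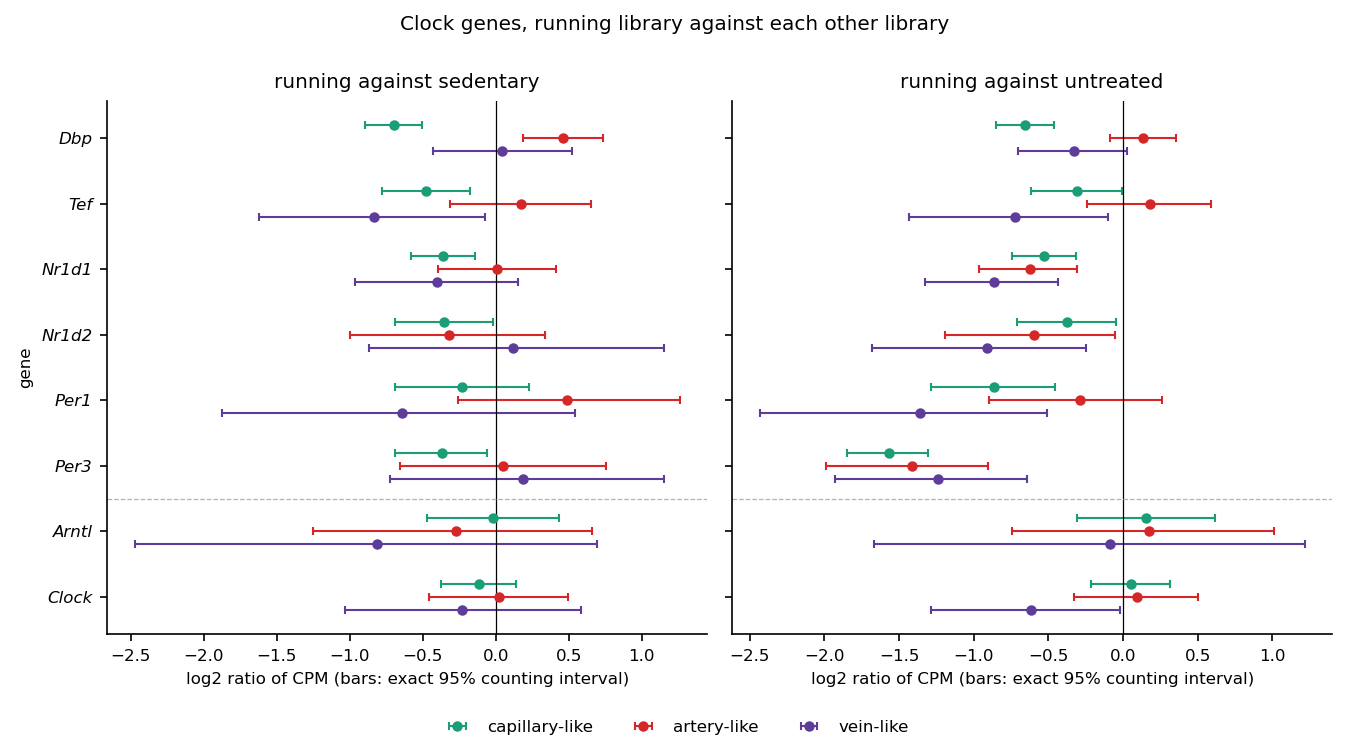
Log2 ratios of CPM in capillary-like, artery-like and vein-like cells for 8 of the clock genes, with exact 95% counting intervals. The comparisons are running against sedentary and running against untreated, and Hlf and Per2 are left out for their few UMIs. In capillary-like cells Dbp, Tef, Nr1d1, Nr1d2 and Per3 lie below 0 with their whole interval in both comparisons. Arntl and Clock lie near 0 in those cells.

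Among the D-box factors, Dbp had 579 UMIs (159 CPM) untreated, 578 (164 CPM) sedentary and 356 (101 CPM) running. The first 2 values lay within counting error of each other, with a ratio of -0.05 (-0.22 to 0.12), and the running value lay below both. As running to sedentary the ratio of Dbp was -0.70 (-0.90 to -0.51), and as running to untreated -0.66 (-0.85 to -0.46). Tef, the relative expressed in many tissues, had 56.5, 63.5 and 45.6 CPM, with ratios of -0.48 (-0.78 to -0.18) and -0.31 (-0.62 to -0.01). Tef was not called, because its distance to the untreated library was under 0.32. Hlf, the third relative, was rare, with 21 untreated, 11 sedentary and 3 running UMIs. Its interval against the sedentary library reached above 0, at -1.72 (-4.36 to 0.04).

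Both NR1D repressor genes were called lower in capillary-like cells summed over clusters. Nr1d1, which encodes the haem-binding repressor REV-ERB alpha, had 125 CPM untreated, 111 sedentary and 86.6 running. Against the sedentary library its ratio was -0.36 (-0.58 to -0.14), and against the untreated one -0.53 (-0.74 to -0.32). In cells thinned to 1000 UMIs the ratio of Nr1d1 to the sedentary library turned to 0.05 (-0.31 to 0.42), so no direction was shown in those cells. Exons of Nr1d1 on the minus strand and of Thra, a thyroid hormone receptor gene on the plus strand, overlap over 263 bases at chr11:98768157-98768419. Thra had 209, 197 and 194 CPM, with a running to sedentary ratio of -0.02 (-0.18 to 0.13). Nr1d2, which encodes the related repressor REV-ERB beta, had 49.4, 48.5 and 37.9 CPM, with ratios of -0.35 (-0.69 to -0.02) and -0.38 (-0.71 to -0.05).

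The Per genes encode the period proteins, and Per3 and Per1 were highest in the untreated library. Per3 had 464 UMIs (127 CPM) untreated, 195 (55.3 CPM) sedentary and 151 (42.7 CPM) running. The gap between the untreated and sedentary libraries, 1.20 (0.96 to 1.45), was larger than that between the running and sedentary libraries, -0.37 (-0.69 to -0.06). Per1, which also responds to acute signals, had 39.2, 25.2 and 21.5 CPM. Its ratio to the untreated library was -0.86 (-1.29 to -0.45), and its ratio to the sedentary library, -0.23 (-0.69 to 0.23), was within counting error. Per2 had 17, 9 and 6 UMIs, too few to order the libraries, with a ratio to the sedentary library of -0.55 (-2.36 to 1.07).

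Summed over capillary-like cells, the activator genes did not differ beyond counting error among the 3 libraries. Arntl had 78 UMIs (21.4 CPM) untreated, 85 (24.1 CPM) sedentary and 84 (23.8 CPM) running, with a ratio to the sedentary library of -0.02 (-0.47 to 0.43). In the capillary-like cluster led by Pcdh12 and Ints6l that ratio was 1.16 (0.22 to 2.12), on 19 sedentary and 23 running UMIs. It was -0.54 (-1.26 to 0.20) in the cluster led by Pycard and Cdkn1a, and 0.10 (-0.79 to 0.96) in that led by Gpihbp1 and Car8. With many clusters and genes examined, 1 such interval carries little weight. Clock had 66.1, 74.3 and 68.5 CPM, with a ratio of -0.12 (-0.38 to 0.14). At this depth a difference of Arntl smaller than these bounds was not detectable. Ordered by the running to sedentary ratio, neighbours in the list of 10 overlapped in their intervals, but the interval of Dbp lay wholly below those of Arntl and Clock.

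By intervals alone, 5 clock genes (Dbp, Tef, Nr1d1, Nr1d2 and Per3) lay below both other libraries in capillary-like cells, against 2.93% of all measured genes, and 0 lay above both, against 3.92%. In artery-like cells 0 lay below and 0 above both, against 1.53% and 1.89% of genes. In vein-like cells 1 lay below (Tef) and 0 above, against 1.15% and 1.31%. By the rule on size 1 of 9 measured clock genes was called lower in artery-like cells (Hlf, where 9.74% of all measured genes were lower and 11.3% higher) and 4 of 9 in vein-like cells (Tef, Hlf, Nr1d1 and Per1, where 12.7% were lower and 11.0% higher), and 0 were called higher in either class. These classes had fewer cells and fewer UMIs, so their intervals were wider.

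**Figure D2:**
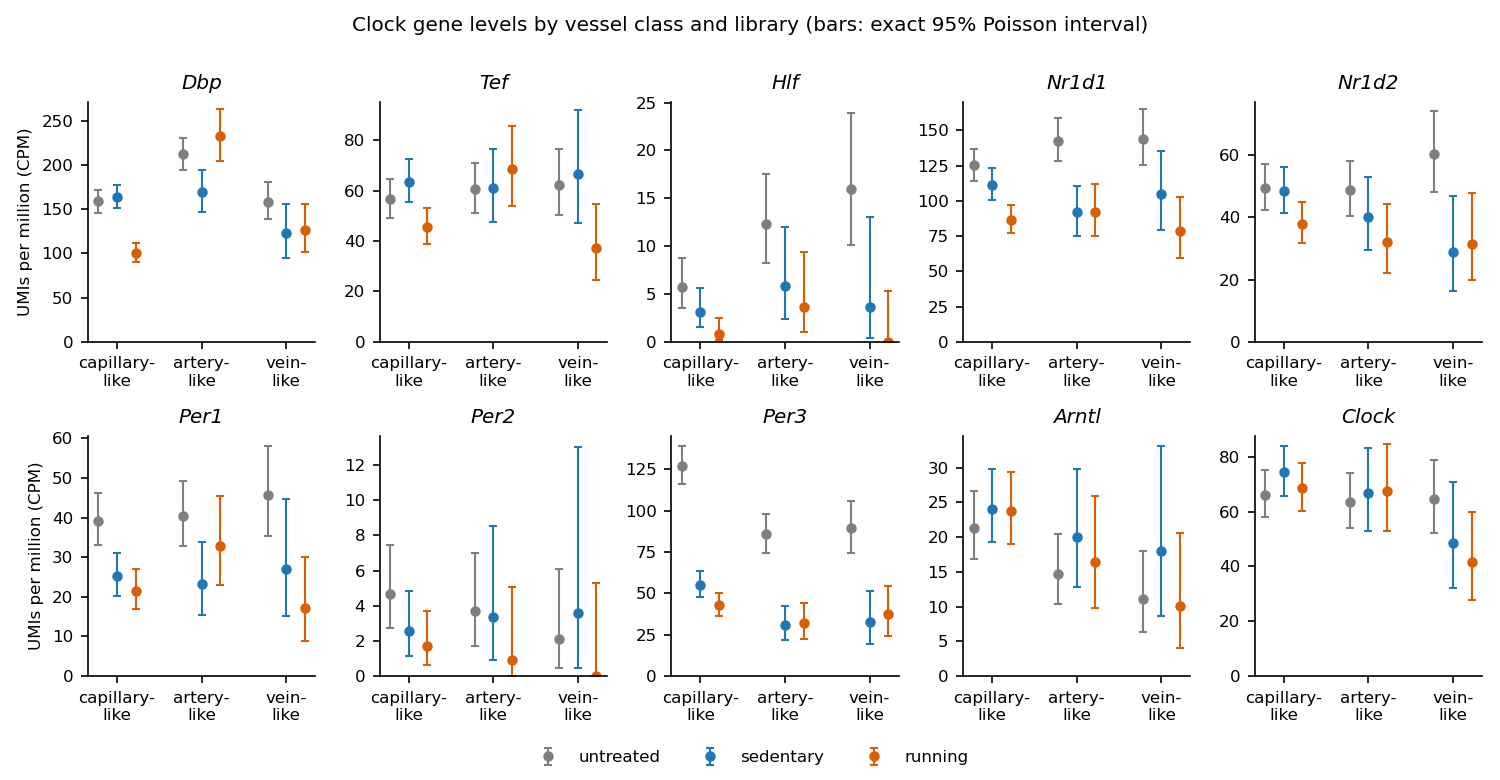
CPM of the clock genes (vertical axes, each from 0) in capillary-like, artery-like and vein-like cells, with 1 point per library and exact 95% Poisson intervals. Dbp is lowest in the running library among capillary-like cells, at 101 CPM, and highest in it among artery-like cells, at 233 CPM.

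In artery-like cells Dbp was higher in the running than in the sedentary library. It had 518 UMIs (212 CPM) untreated, 203 (169 CPM) sedentary and 255 (233 CPM) running. The running value was the highest of the 3 and lay within counting error of the untreated one, at 0.14 (-0.09 to 0.35). To the sedentary library the ratio was 0.46 (0.19 to 0.73). The artery-like ratio exceeded the capillary-like one by 1.16 (0.83 to 1.496) against the sedentary and by 0.79 (0.50 to 1.08) against the untreated library, intervals that again cover counting error only. Tef had 60.5, 60.9 and 68.4 CPM in artery-like cells, and its running to sedentary ratio exceeded the capillary-like one by 0.65 (0.08 to 1.22). For the other 8 genes that difference was within counting error.

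In artery-like cells Per3 and Nr1d1 were highest in the untreated library. Per3 had 85.9 CPM untreated, 30.8 sedentary and 31.9 running, and Nr1d1 had 143, 91.7 and 92.2 CPM. In both genes the sedentary and running values were alike within counting error, with ratios of 0.05 (-0.66 to 0.76) and 0.01 (-0.40 to 0.41), and the untreated value was above both. The summed output arm without Dbp had a running to sedentary ratio of 0.03 (-0.20 to 0.27), against 0.22 (0.04 to 0.40) with Dbp. Arntl had 14.7, 20.01 and 16.4 CPM, and Clock 63.4, 66.7 and 67.5 CPM.

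In vein-like cells the ratio of Dbp lay between those of the other classes, on 159 CPM untreated, 123 sedentary and 126 running. The running to sedentary ratio was 0.04 (-0.43 to 0.52), and it exceeded the capillary-like one by 0.74 (0.23 to 1.26). Tef had 62.3, 66.7 and 37.2 CPM there, with ratios of -0.83 (-1.62 to -0.08) and -0.72 (-1.43 to -0.10). Hlf had 23 UMIs untreated, 2 sedentary and 0 running in vein-like cells, where the limit taken for a count of 0, 3 UMIs, is 4.30 CPM (exact upper bound 5.28), against 15.9 CPM untreated. Per3 had 89.4, 32.4 and 37.2 CPM. Clock had 64.4, 48.7 and 41.5 CPM, with a running to untreated ratio of -0.62 (-1.29 to -0.02), and its difference from the capillary-like ratio was -0.67 (-1.39 to -0.01). The intervals of the arms overlapped in vein-like cells, where the running to sedentary ratio was -0.25 (-0.52 to 0.03) for the summed output genes and -0.37 (-1.07 to 0.33) for Arntl and Clock. Lymphatic-like cells numbered only 27, 10 and 43, and Dbp had 5, 0 and 8 UMIs in them.

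**Figure D3:**
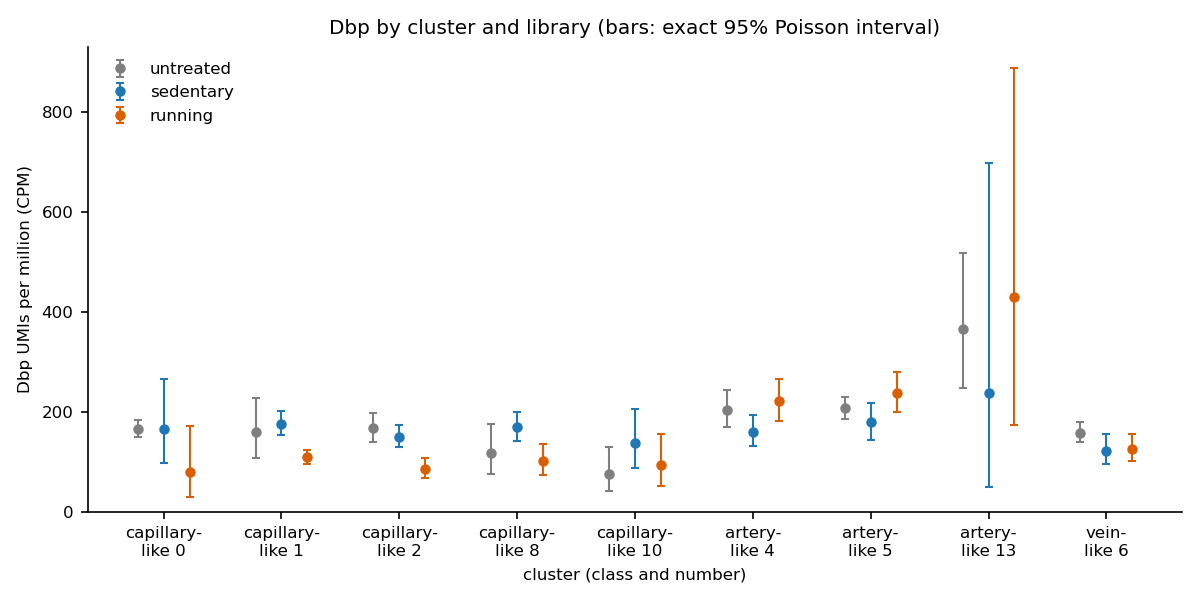
Dbp CPM (vertical axis, from 0) in each cluster and library, with exact 95% Poisson intervals. In each of the 5 capillary-like clusters the running library lies below the sedentary one, and in each of the 3 artery-like clusters above it. The smallest artery-like cluster had only 3 sedentary and 7 running UMIs.

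As running to sedentary, Dbp had 1 direction in the capillary-like clusters and the other in the artery-like ones. In the 3 capillary-like clusters that had at least 100 cells in each library, the running to sedentary ratios were -0.70 (-0.97 to -0.42), -0.80 (-1.20 to -0.41) and -0.73 (-1.27 to -0.23). The last of these clusters had a median of 683 UMIs per cell. The interferon-gene cluster had -0.54 (-1.64 to 0.46) and the cluster made up mostly of untreated cells -0.995 (-2.70 to 0.34), on 14 and 6 running UMIs. The artery-like clusters with the most cells had 0.47 (0.07 to 0.86), led by Fbln5, Gja5 and Clu, and 0.41 (0.02 to 0.80), led by Col8a1, Tgfb2 and Hey1. The smallest artery-like cluster, of 8 sedentary and 9 running cells, had 0.73 (-1.28 to 3.44) on 3 and 7 UMIs. Other output genes were less uniform over the 3 capillary-like clusters named first. As running to sedentary, Nr1d1 had -0.21 (-0.55 to 0.13), -0.19 (-0.68 to 0.28) and -0.49 (-0.98 to -0.03). In the cluster with a median of 683 UMIs, Tef had 0.04 (-0.63 to 0.66), Nr1d2 0.12 (-0.53 to 0.74) and Per3 0.31 (-0.39 to 0.98). In the first cluster Tef had -0.70 (-1.17 to -0.22), Nr1d2 -0.49 (-1.05 to 0.08) and Per3 -0.52 (-1.01 to -0.02). In the second they had -0.28 (-0.88 to 0.29), -0.19 (-0.89 to 0.48) and -0.28 (-0.88 to 0.29). Only Tef and Per3 in the first cluster thus lay below 0 beyond counting error. The part of cluster mix in the class values was not tested. Because 15 clusters were examined, intervals near 0 carry little weight singly.

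As running to sedentary, Dbp had these directions in cells of equal depth too. At that depth, capillary-like shares of the other output genes did not differ beyond counting error between the running and sedentary libraries. With each cell thinned to 1000 UMIs, Dbp was detected in 14.0% (12.4 to 15.6) of untreated, 13.2% (11.5 to 15.1) of sedentary and 9.08% (7.69 to 10.6) of running capillary-like cells, by exact Clopper-Pearson intervals. Thinning left out 535, 1528 and 759 shallower cells. The running minus sedentary difference was -4.14 percentage points (-6.47 to -1.82), and without thinning -2.96 (-4.85 to -1.04). In artery-like cells it was 4.91 points (0.11 to 9.78), from 13.3% sedentary to 18.2% running, and 9.27 (4.17 to 14.4) without thinning. The thinned capillary-like difference was 0.25 points (-1.76 to 2.26) for Nr1d1, -0.69 (-2.11 to 0.70) for Nr1d2, -0.20 (-1.40 to 0.98) for Per1, -1.15 (-2.80 to 0.49) for Per3 and -1.51 (-3.09 to 0.04) for Tef. For Clock it was 0.26 (-1.53 to 2.04), and in artery-like cells 3.34 (0.13 to 6.71). The untreated library stood higher for Per3, detected in 11.5% (10.1 to 13.1) of its thinned capillary-like cells. The sedentary share of Per3 was 5.65% (4.51 to 6.99) and the running share 4.51% (3.52 to 5.67). In artery-like cells the unthinned difference was 5.09 (1.36 to 8.98) for Tef and 2.87 (0.19 to 5.76) for Per1. Thinned, these were 0.55 (-2.61 to 3.83) and 0.61 (-1.52 to 2.90). Acta1, a muscle fibre gene that endothelial cells should lack, was detected in 1.06% to 1.57% of the thinned capillary-like cells, well under the share for Dbp. The share for Arntl, 1.81% to 2.19%, was near that of Acta1. Hlf, at 0.13% to 0.49%, and Per2, at 0.07% to 0.44%, lay below it. The haemoglobin gene Hbb-bs was detected in 1.53% of untreated, 32.2% of sedentary and 23.5% of running thinned cells.

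Markers of other cell types differed between libraries too. In capillary-like cells the 5 erythrocyte markers summed to 145 CPM untreated, 1032 sedentary and 705 running, all 5 detected. The 8 muscle fibre markers summed to 67.2, 76.0 and 89.4 CPM, the 9 mural markers to 189, 168 and 227 and the 8 lymphatic markers to 50.7, 78.8 and 166, with every marker of each list detected. All 4 satellite cell markers were at 0, and Ptprc, C1qa, Cd3e and S100a8 were at 0 among the 9 immune markers, which summed to 1.10, 1.42 and 5.38 CPM. Without cells that held any muscle fibre or erythrocyte marker UMI, which left 1051 sedentary and 853 running capillary-like cells, the Dbp ratio was -0.54 (-0.90 to -0.20), and in artery-like cells 0.61 (0.02 to 1.22). In artery-like cells the mural markers summed to 205, 173 and 244 CPM, the lymphatic ones to 74.9, 82.5 and 141, without Prox1 and Pdpn, and the immune ones to 0.41, 3.33 and 40.1, without C1qa, Cd3e and Cd79a. The part of the mural, lymphatic and immune markers in these values was not tested. Of 21 early response genes, which tissue digestion can induce, 7 were higher and 0 lower in the running capillary-like cells. Of all measured genes 8.87% were higher and 6.36% lower. The early response genes had a median of 0.53 against the sedentary library, and their part in the clock values was not tested. In artery-like cells 1 of 21 was higher and 0 lower, with a median of 0.27. There 11.3% of all measured genes were higher and 9.74% lower.

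Clock genes outside the 10 did not share 1 direction in capillary-like cells. Of 11 other clock transcription factors 7 were measured, with 1 called lower (Cry2) and 1 higher (Arntl2, on 21 UMIs in all), and the median running to sedentary ratio was 0.15. Of all measured genes 6.36% were called lower and 8.87% higher, so 1 call in each direction says little about the list. Cry1 and Cry2 encode the cryptochrome partners of the PER proteins and were ordered differently across the libraries. Cry2 had 78.7 CPM untreated, 24.4 sedentary and 18.4 running, with its untreated value above the others, as for Per3. Cry1 had 6.85, 17.3 and 7.64 CPM, with a running to sedentary ratio of -1.16 (-1.89 to -0.50) and a running to untreated ratio of 0.15 (-0.68 to 1.00). Rora, an activator that competes with NR1D proteins, had 69.9, 30.9 and 41.3 CPM, and Bhlhe40, a repressor that binds E-boxes, had 52.4, 40.3 and 52.1 CPM.

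Of the 7 kinases and ubiquitin ligases that act on clock proteins 6 were measured, with 1 lower (Btrc, 23.0, 21.0 and 14.2 CPM) and 0 higher. Of 9 genes rhythmic in many tissues 7 were measured, with 1 lower (Wee1, a cell cycle kinase gene, 18.9, 14.7 and 9.91 CPM) and 1 higher (Usp2, 1.65, 1.70 and 2.83 CPM on 22 UMIs in all). Tsc22d3, a glucocorticoid-induced gene, had 304 CPM untreated, 112 sedentary and 114 running. Of 12 measured genes of the glucocorticoid list 3 were lower and 1 higher, with a median of -0.14 against the sedentary and -0.38 against the untreated library. Beside the counts of each list, 6.36% of all measured genes were called lower and 8.87% higher.

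Differences between vessel classes could be tested, because each class was present in all 3 libraries. They were tested with edgeR's quasi-likelihood test on 9 sums with library as a block and Benjamini-Hochberg adjustment over 9926 genes, and 8 clock genes passed the filter on low counts (not Hlf and Per2). The residual spread is that between libraries of different treatment. In artery-like against capillary-like cells 2 clock genes passed an adjusted p of 0.05, where 22.7% of all genes did. Per3 was lower in artery-like cells by -0.57 (SE 0.13, adjusted p 0.000333), with differences of -0.56, -0.83 and -0.40 in the untreated, sedentary and running libraries. Dbp was higher by 0.57 (SE 0.16, adjusted p 0.0254), but its differences in the 3 libraries were 0.42 (0.24 to 0.59), 0.05 (-0.19 to 0.28) and 1.21 (0.97 to 1.44). Most of the Dbp difference was thus in the running library, and without that library edgeR gave 0.27 with an adjusted p of 0.153. With no library block edgeR called neither Per3 (adjusted p 0.791) nor Dbp (0.14).

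**Figure D4:**
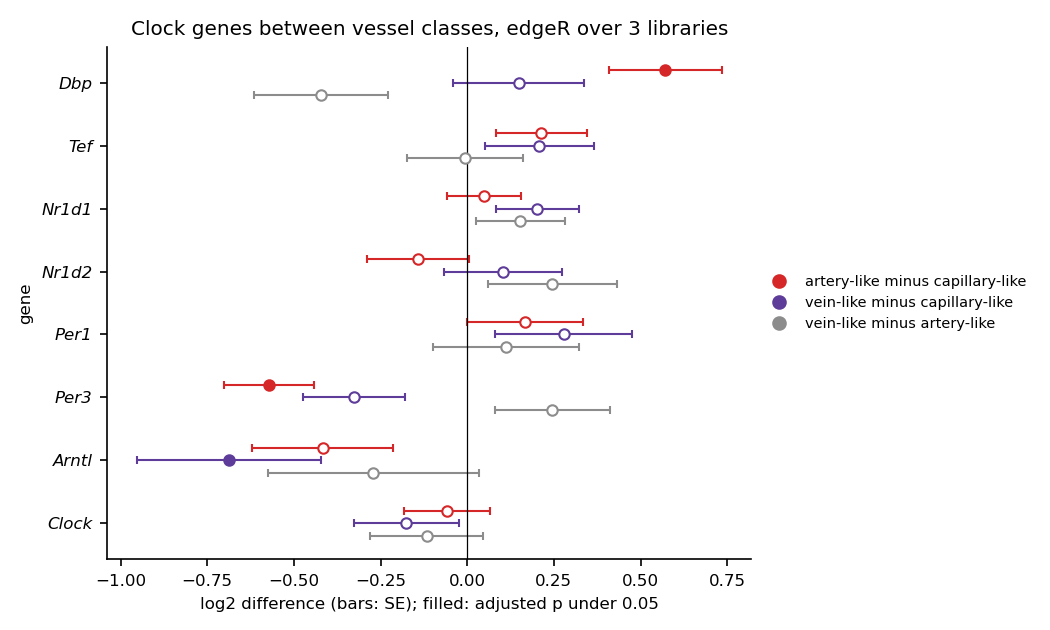
Log2 differences between vessel classes for the 8 tested clock genes, from edgeR over 3 libraries; bars are standard errors and filled points have an adjusted p under 0.05. Dbp lies at 0.57 and Per3 at -0.57 for artery-like minus capillary-like, and Arntl at -0.69 for vein-like minus capillary-like.

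In vein-like against capillary-like cells 1 clock gene passed, where 25.0% of all genes did. Arntl was lower by -0.69 (SE 0.27, edgeR adjusted p 0.048), in the same direction in the 3 libraries, with differences of -0.91, -0.36 and -1.15 on 16, 10 and 7 vein-like UMIs. This call was lost with DESeq2 (adjusted p 0.242) and without the untreated (0.25) or the running library (0.246). Between vein-like and artery-like cells edgeR called 0 clock genes, 0 at an unadjusted p under 0.05, and DESeq2 called 0 with 1 at an unadjusted p under 0.05, where edgeR called 27.7% of all genes. The CPM of Dbp was lower in vein-like cells in each library, a difference that edgeR over the 3 libraries did not call. The differences were -0.42 (-0.65 to -0.19) untreated, -0.46 (-0.88 to -0.06) sedentary and -0.88 (-1.25 to -0.53) running, with intervals of counting error only. Nr1d1, Nr1d2, Per1, Tef and Clock passed in no class comparison.

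Bhlhe40, Wee1, Fmo2 and Nfil3, from the lists of other clock and rhythmic genes, differed between classes by more than any of the 8 tested clock genes. Bhlhe40 was higher in vein-like than in capillary-like cells by 1.85 (SE 0.15, edgeR adjusted p 1.98e-11), with 232 CPM in untreated, 119 in sedentary and 103 in running vein-like cells. Wee1 was higher in the same comparison by 1.46 (SE 0.23, adjusted p 3.16e-07). Fmo2, a flavin monooxygenase gene with a daily rhythm in many tissues, was lower in artery-like than in capillary-like cells by -2.91 (SE 0.14, adjusted p 3.94e-29) and higher in vein-like ones by 1.95 (SE 0.10, adjusted p 3.03e-28). Nfil3, whose product represses from D-boxes, was higher in artery-like than in capillary-like cells by 1.23 (SE 0.34, adjusted p 0.00365), at levels of 6.14 to 15.8 CPM. Of the other clock transcription factors 5 of 11 were tested, with 2 higher and 0 lower in artery-like and 1 higher and 0 lower in vein-like against capillary-like cells. Of all genes 22.7% and 25.0% were called in these comparisons, in either direction.

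Over the 9 sums of 3 classes and 3 libraries, log2 CPM of Dbp was most like that of Ccni, Tnks2, Smpdl3a, Mfap3 and Samd12 among 6589 genes with at least 300 UMIs, with Pearson r from 0.84 to 0.86. The lowest r was that of Taf1d, at -0.88, followed by Fam111a, Fkbp1a, Ccnd1 and Hcls1, up to -0.83. No other clock gene was among these. Of the clock genes that were ranked Tef was the nearest, at 369 with r of 0.60, and Arntl stood at 4513 with r of -0.14. Hlf, with too few UMIs to be ranked, had r of 0.62. Among the clock genes themselves Nr1d1 was most like Per1 (r of 0.89) and Nr1d2 most like Per3 (0.82). These r are descriptions over 9 sums that share libraries and depth.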

How the data were processed

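Per the labels' protocols, endothelial cells were sorted and libraries were built with version 2 of the 10x Genomics 3′ single-cell kit. The authors deposited raw UMI counts per gene and barcode, made with Cell Ranger 2.0.2 on GRCm38.p5 per the submitters' processing notes. Cell calling and annotation release are not given in the sources used here. Cells with at least 300 genes and at most 10% mitochondrial UMIs were kept. Scrublet marked 2 of 11554 barcodes (0.0173%) and so did not work as a doublet filter. Scanpy 1.11.5 clustered all libraries together without integration on 2000 variable genes, leaving out the clock lists, with 30 principal components and 15 neighbours, at a Leiden resolution of 1.0. Clusters got names ending in "-like" from marker lists with at least 3 detected markers, with score limits set after the data were seen. The 10 clock genes, the lists and the comparisons were chosen with earlier results of these data known.

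UMIs were summed per class and library and scaled to CPM. A prior count of 0.5 was added for log2 ratios, and intervals were exact 95% Poisson intervals. The interval of a difference between ratios or shares added the distances to both bounds in quadrature. With 1 library per group no test between groups was made. Class contrasts used edgeR 4.0.16, with DESeq2 1.42.0 as an alternative, and the edgeR step was tested on simulated data. Named genes were the 10, the other clock lists, Thra, and the 5 genes most and least like Dbp by Pearson r with at least 300 UMIs. A result on a listed gene is not reported here. Gene positions were from GENCODE M21 and promoters from RefSeq.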

Additional observations from a re-analysis of the deposited data

Results flagged for a closer look

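Ratios of the running to the sedentary library that had opposite directions in artery-like and capillary-like cells were picked out for a closer look. For Dbp the artery-like ratio minus the capillary-like ratio was 1.16, from 0.46 and -0.70. For Tef it was 0.65, from 0.17 and -0.48, and the artery-like interval of Tef reached below 0. With 1 library per group neither difference was tested against replicates, and the bounds given above cover counting error only.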

How the results depend on the processing

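No paired analysis was possible because each group had 1 library and the labels carry no replicate numbers.

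The count of 6 clock genes lower in the running capillary-like cells was 2 at a fold of 1.5 (2.34% of all genes), 2 with a minimum of 500 genes, 3 without the highest 5% of doublet scores, 3 of 8 in cells thinned to 1000 UMIs and 2 in all endothelial-like cells. It was 7 against the sedentary library alone and 7 against the untreated library alone, where 16.3% and 18.3% of all genes were lower, and 0 were higher under each alternative run. The summed output arm against the sedentary library was -0.37 with 500 genes, -0.34 thinned and -0.30 in all endothelial-like cells. Against the untreated library it was -0.86 with TMM scaling and -0.86 with DESeq2 size factors. Dbp against the sedentary library was -0.29 in all endothelial-like cells, which join classes of opposite direction, and ranged from -0.75 to -0.29 over 12 alternatives in place of -0.70. In artery-like cells it ranged from 0.40 to 0.61 over 9, and in vein-like cells from -0.37 to 0.36 over 6. Against the sedentary library Nr1d1 came to 0.054, Per1 to 0.03 and Per2 to 0.62 when thinned, each with an interval across 0, and Per2 against the untreated library to 0.058 as the median within clusters. The causes were not tested.

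Between artery-like and capillary-like cells the count of 2 was 0 with no library block, 1 at Leiden resolution 0.5, 1 with clock genes kept among the variable genes, and 1 to 2 leaving out 1 library. Dbp was the call lost in the last 3 settings. Between vein-like and capillary-like cells the count of 1 was 0 with no library block, 0 with DESeq2, 0 at resolution 0.5, 0 with clock genes kept, 0 with 500 genes, 2 without the filter on low counts, and 0 to 2 leaving out 1 library. Between vein-like and artery-like cells the count of 0 was 1 without that filter, 1 with 500 genes and 0 to 1 leaving out 1 library, each time Dbp. Genes called over all 9926 fell from 2257 to 869 with no library block for artery-like against capillary-like cells, from 2483 to 1269 for vein-like against capillary-like cells and from 2745 to 1453 for vein-like against artery-like cells, and DESeq2 called 1296 in the first of these. Depth limited Hlf and Per2 in every class and Arntl in vein-like cells.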

Other observations

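In an endothelial cluster that no vessel class took in, led by Penk and Itm2a, Dbp had 302 CPM in 58 untreated, 224 in 47 sedentary and 337 in 35 running cells, with a running to sedentary ratio of 0.58 (-0.17 to 1.37). In a second such cluster, led by Apln and Ift122, it had 42.9, 89.9 and 39.5 CPM, on 12 UMIs in all. The mural-like cluster had 223, 190 and 68.7 CPM of Dbp, on 9 UMIs in the running library.

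The untreated library was above the sedentary one for several clock genes in each vessel class. For Per3 the untreated to sedentary ratio was 1.20 (0.96 to 1.45) in capillary-like, 1.46 (0.97 to 2.02) in artery-like and 1.43 (0.74 to 2.26) in vein-like cells. For Nr1d1 it was 0.17 (-0.03 to 0.36), 0.63 (0.33 to 0.96) and 0.45 (0.04 to 0.91), and for Per1 0.63 (0.24 to 1.03), 0.78 (0.18 to 1.46) and 0.72 (-0.07 to 1.67). In capillary-like cells Cry2 had 1.68 (1.34 to 2.05), Rora 1.17 (0.85 to 1.51) and Tsc22d3 1.44 (1.27 to 1.61), while Cry1 had -1.32 (-2.07 to -0.64). Housing, hour and batch of the untreated library cannot be told apart.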
